A study of Oryza sativa with 12 samples.

Results

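Erythroceros Hokkaido (ERY) is a rice cultivar labelled cold-stress tolerant, and the comparison described here is its own response to 1 cold night in anthers at the post-meiotic stage. The plants of both groups were grown alike in phytotrons and moved to short days before the stage was reached. ERY COLD plants then passed 1 night at 8 °C and ERY CONTROL plants the same night at 24 °C, with 3 biological replicates in each group, and each replicate pooled anthers of 5 to 8 plants. The 6 samples of the sensitive cultivar S.AND (Sant'Andrea) are not compared here. Of 55985 genes in the table, 23936 had a mean of at least 1 RPKM (reads per kilobase of transcript and 1000000 reads) in ERY COLD or ERY CONTROL and were kept. The higher mean was 1.0004 RPKM in the lowest gene kept and 0.999 RPKM in the highest gene left out, and 325 genes lay between 1.0 and 1.1 RPKM against 346 between 0.9 and 1.0.

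After meiosis the microspores of rice depend on the tapetum, the innermost layer of the anther wall, which secretes sugars and the lipid precursors of the pollen wall and then dies by a programmed death. Chilling in this period is known to lead to pollen sterility, and starch filling of the pollen follows later. Ethylene, a gas hormone, acts through membrane receptors that repress the pathway in its absence, and ERF (ethylene response factor) proteins stand at its end.

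The deposited table holds the mean of each group, with no column for a single sample. Each mean is a sum of whole read numbers of 3 libraries over a whole transcript length, and those read numbers were recovered from the digits of the means for 23843 of the 23936 genes. The libraries of a group are called A, B and C from the deepest to the shallowest, with 26217474 to 43543223 recovered reads, and cannot be tied to a replicate number. The 93 genes not recovered all reached 122.7 RPKM in at least 1 group and held 19.1% of the CONTROL sum and 16.99% of the COLD sum, so many of the most abundant anther genes have group means alone and were not tested. Levels, as log2(RPKM + 1), correlated at 0.928 to 0.97 across genes within a group and at 0.893 to 0.950 between groups. The first principal component, with 46.1% of the variance, set the 3 CONTROL libraries apart from the 3 COLD libraries, and the second, with 28.2%, ran from CONTROL B to CONTROL C. The anther and tapetum markers were all measured, from the lipid transfer gene OsC6 (means of 25952 and 20286 RPKM in CONTROL and COLD) down to PTC1 (1.42 and 2.97 RPKM). The 17 genes described as chlorophyll A-B binding or photosystem proteins, which are among the photosynthesis genes given further on, none of them at 0 in any library, summed to 1185, 854 and 2298 RPKM in CONTROL A, B and C and to 843, 591 and 503 RPKM in COLD A, B and C. Descriptions exist only for genes that the study listed as changed in a cultivar, so a lower sum in COLD can follow from that choice. Fewer cells of a type and less RNA per cell cannot be told apart in such bulk samples.

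After the cold night 1961 genes (8.19% of 23936) were at least 2-fold higher and 1594 (6.66%) at least 2-fold lower by the ratio of group means. With the spread between libraries taken into account, 2371 of 23843 genes rose (9.94%) and 1992 fell (8.35%) at an adjusted p under 0.05 (limma on log2(RPKM + 1), Benjamini-Hochberg). Throughout, "rose" and "fell" name genes past this test, a log2 difference is that of log2(RPKM + 1) with its standard error, and a log2 ratio is that of the group means. Genes that both passed the test and changed at least 2-fold numbered 1229 higher (5.15%) and 931 lower (3.9%), and 2203 called genes changed less than 2-fold. All 3 COLD libraries lay above all 3 CONTROL libraries for 21.2% of genes and below them for 18.0%. The median log2 ratio over all genes was 0.03, and these counts are read against it.

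Among genes at 1 to 5 RPKM on average, 22.7% differed at least 2-fold and 13.5% passed the test, and their median coefficient of variation (CV) between libraries was 26.9%. Between 20 and 100 RPKM, 7.94% differed 2-fold and 21.3% passed the test, with a median CV of 10.96%. The 757 genes under 1 RPKM on average are left out of this comparison, since they were kept only through the group where they are higher. In all, 1000 genes reached 1 RPKM in COLD alone and 890 in CONTROL alone, and those averaging 1 RPKM or more stay in the comparison. Genes of both kinds also stay in the 2-fold counts, where the minimum itself favours a large ratio. At the far ends, 113 genes rose at least 8-fold and 28 fell at least 8-fold. Leaving out 1 library lowered the counts to between 1264 and 2007 genes that rose and between 860 and 1893 that fell.

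**Figure D1:**
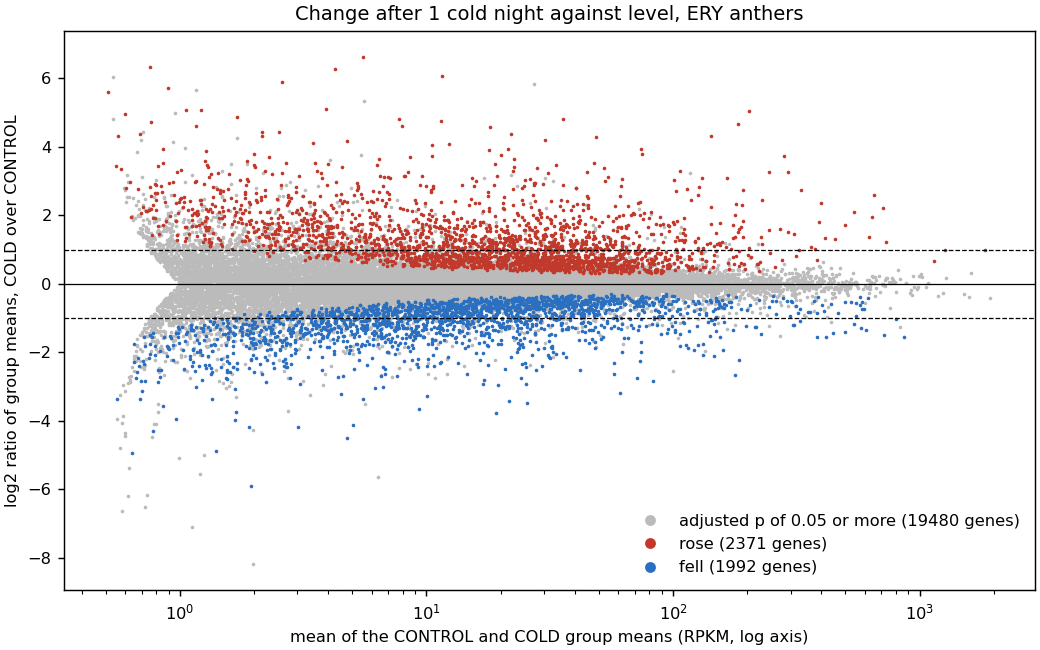
Each point is 1 of 23843 tested genes of ERY anthers, with the mean of the CONTROL and COLD group means in RPKM on a log axis and the log2 ratio of COLD over CONTROL, and dashed lines at 2-fold. Genes that rose (2371) and fell (1992) reach closest to 0 at middle and high levels, while genes under 1 RPKM on average were kept only through the group where they are higher; the few genes with a mean of 0 in a group have no ratio and are not drawn.

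The ethylene genes that passed the test all rose. Of 44 genes of ethylene synthesis, sensing, signalling and known ERF proteins that the study gathered from the literature, 33 reached 1 RPKM, 14 rose and 0 fell, also under voom, and 1 was lower at an unadjusted p under 0.05, where 9.94% of all genes rose and 8.35% fell. Their median log2 ratio was 0.55, against 0.03 over all genes. A further 13 factors that the study had added to its table because of these samples all rose, with a median of 1.91, which is a description of that choice and not independent evidence.

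In synthesis, 2 of 7 measured genes rose, both for ACC oxidase, the enzyme of the last step to ethylene. OsACO2 (LOC_Os02g53180) was at 22.1, 38.7 and 19.6 RPKM in CONTROL A, B and C and 117, 97.2 and 111 RPKM in COLD A, B and C (log2 difference 2.03 ± 0.25, adjusted p = 0.0046). OsACO4 (LOC_Os11g08380) was at 5.12, 5.48 and 6.98 RPKM in CONTROL A, B and C and 23.4, 13.9 and 16.3 RPKM in COLD A, B and C (log2 difference 1.44 ± 0.21, adjusted p = 0.0077). No COLD library of either gene overlapped with a CONTROL library. OsACS6 (LOC_Os06g03990), the most abundant gene for ACC synthase, the enzyme one step earlier, had 15.3 to 24.98 RPKM in CONTROL and 21.8 to 27.4 RPKM in COLD, and its groups overlapped (adjusted p = 0.34). OsACS1 and OsACS3 did not pass the test either, nor did OsACO1 and OsACO3, and the other 6 genes of the section stayed under 1 RPKM in both groups.

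In sensing, 4 of 7 genes rose. The receptor genes OsERS1 (LOC_Os03g49500), OsETR2 (LOC_Os04g08740) and OsETR3 (LOC_Os02g57530) rose, with log2 ratios of 0.38, 0.55 and 1.25. OsETR3 was the lowest of them in level but had the largest difference, with 1.84, 2.99 and 1.26 RPKM in CONTROL A, B and C and 4.61, 4.78 and 5.06 RPKM in COLD A, B and C (log2 difference 0.98 ± 0.23, adjusted p = 0.031). OsERS1 had 76.1 to 84.97 RPKM in CONTROL and 99.1 to 107 RPKM in COLD (log2 difference 0.38 ± 0.09, adjusted p = 0.028). OsRTE2 (LOC_Os05g46240), whose Arabidopsis relative RTE1 promotes receptor function, was at 11.9, 13.9 and 13.5 RPKM in CONTROL A, B and C and 47.8, 47.2 and 39.2 RPKM in COLD A, B and C (log2 difference 1.70 ± 0.12, adjusted p = 0.0011). Its lowest COLD library was far above its highest CONTROL library, while its relatives OsRTE1 and OsRTE3 did not pass the test, with log2 ratios of -0.42 and 0.26.

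In signal transduction, 5 of 12 genes rose, and they lay at successive steps. OsCTR2 (LOC_Os09g39320), a Raf-like kinase of the kind that represses the pathway, had 15.6 to 19.3 RPKM in CONTROL and 23.04 to 29.8 RPKM in COLD (log2 difference 0.56 ± 0.14, adjusted p = 0.034). OsEIN2 (LOC_Os07g06130), the membrane protein that passes the signal on, had 28.5 to 33.95 RPKM in CONTROL and 43.9 to 54.6 RPKM in COLD (log2 difference 0.59 ± 0.12, adjusted p = 0.02). OsEIL2 (LOC_Os07g48630), one of the EIN3-like transcription factors, was at 93.8, 73.6 and 66.7 RPKM in CONTROL A, B and C and 259, 198 and 204 RPKM in COLD A, B and C (log2 difference 1.49 ± 0.17, adjusted p = 0.0034). OsEBF1 (LOC_Os06g40360) and OsEBF2 (LOC_Os02g10700) encode F-box proteins that target EIN3-like proteins for degradation. OsEBF1 was at 30.1, 31.4 and 31.4 RPKM in CONTROL A, B and C and 68.8, 70.3 and 58.2 RPKM in COLD A, B and C (log2 difference 1.06 ± 0.10, adjusted p = 0.0023), and OsEBF2 had 70.8 to 102 RPKM in CONTROL and 153 to 248 RPKM in COLD (log2 difference 1.13 ± 0.22, adjusted p = 0.017). All of these COLD libraries lay above all of the CONTROL libraries. OsEIL1 (LOC_Os03g20780) had the highest log2 ratio of the section, 2.44, yet did not pass the test (adjusted p = 0.19): its libraries were at 0.462, 1.20 and 0.658 RPKM in CONTROL A, B and C and 9.19, 2.41 and 1.03 RPKM in COLD A, B and C, so the ratio came mainly from COLD A.

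Of 7 known ERF genes measured, 3 rose. OsERF1 (LOC_Os04g46220) was at 6.10, 3.56 and 4.14 RPKM in CONTROL A, B and C and 28.6, 30.1 and 18.9 RPKM in COLD A, B and C (log2 difference 2.26 ± 0.24, adjusted p = 0.0031). OsERF3 (LOC_Os01g58420) was at 95.5, 71.8 and 45.5 RPKM in CONTROL A, B and C and 325, 233 and 296 RPKM in COLD A, B and C (log2 difference 2.04 ± 0.27, adjusted p = 0.0057), and Sub1C (LOC_Os09g11460), a gene of the submergence tolerance locus, had 3.96 to 4.76 RPKM in CONTROL and 12.8 to 20.7 RPKM in COLD (log2 difference 1.63 ± 0.19, adjusted p = 0.0041). The groups of these 3 genes did not overlap. OsAP2-39 (LOC_Os04g52090) also had no overlap, at 151, 80.7 and 64.9 RPKM in CONTROL against 326, 153 and 197 in COLD, but its wide spread left it at an adjusted p of 0.077. OsEATB (LOC_Os09g28440) was at 0.562, 0.337 and 0 RPKM in CONTROL against 4.20, 0.0757 and 0.0900 in COLD, so its log2 ratio of 2.28 came from COLD A alone (adjusted p = 0.63). OsEREBP1 (LOC_Os02g54160) and OsWR1 (LOC_Os02g10760), the latter a regulator of wax synthesis, were abundant at 359 to 401 RPKM in CONTROL and 372 to 429.9 RPKM in COLD and at 172 to 214 RPKM in CONTROL and 158 to 199.5 RPKM in COLD, and neither passed the test. Among the 13 added factors OsERF64 (LOC_Os03g08500) reached the highest level, 346, 230.1 and 219 RPKM in CONTROL A, B and C and 980.1, 1118 and 969.8 RPKM in COLD A, B and C (log2 difference 1.97 ± 0.19, adjusted p = 0.0024), and its neighbour by locus number OsERF69 (LOC_Os03g08490) had 0.289 to 0.883 RPKM in CONTROL and 4.47 to 8.21 RPKM in COLD (log2 difference 2.25 ± 0.25, adjusted p = 0.0035).

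Without 1 library at a time, 9 to 11 of the 14 literature genes past the test were called in each case, and OsERS1, OsETR2, OsETR3 and OsCTR2 were each lost in at least 5 of the 6 omissions. OsEIN2 was lost without CONTROL A, COLD A or COLD B. The remaining genes named above as rising kept their call in every omission.

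**Figure D2:**
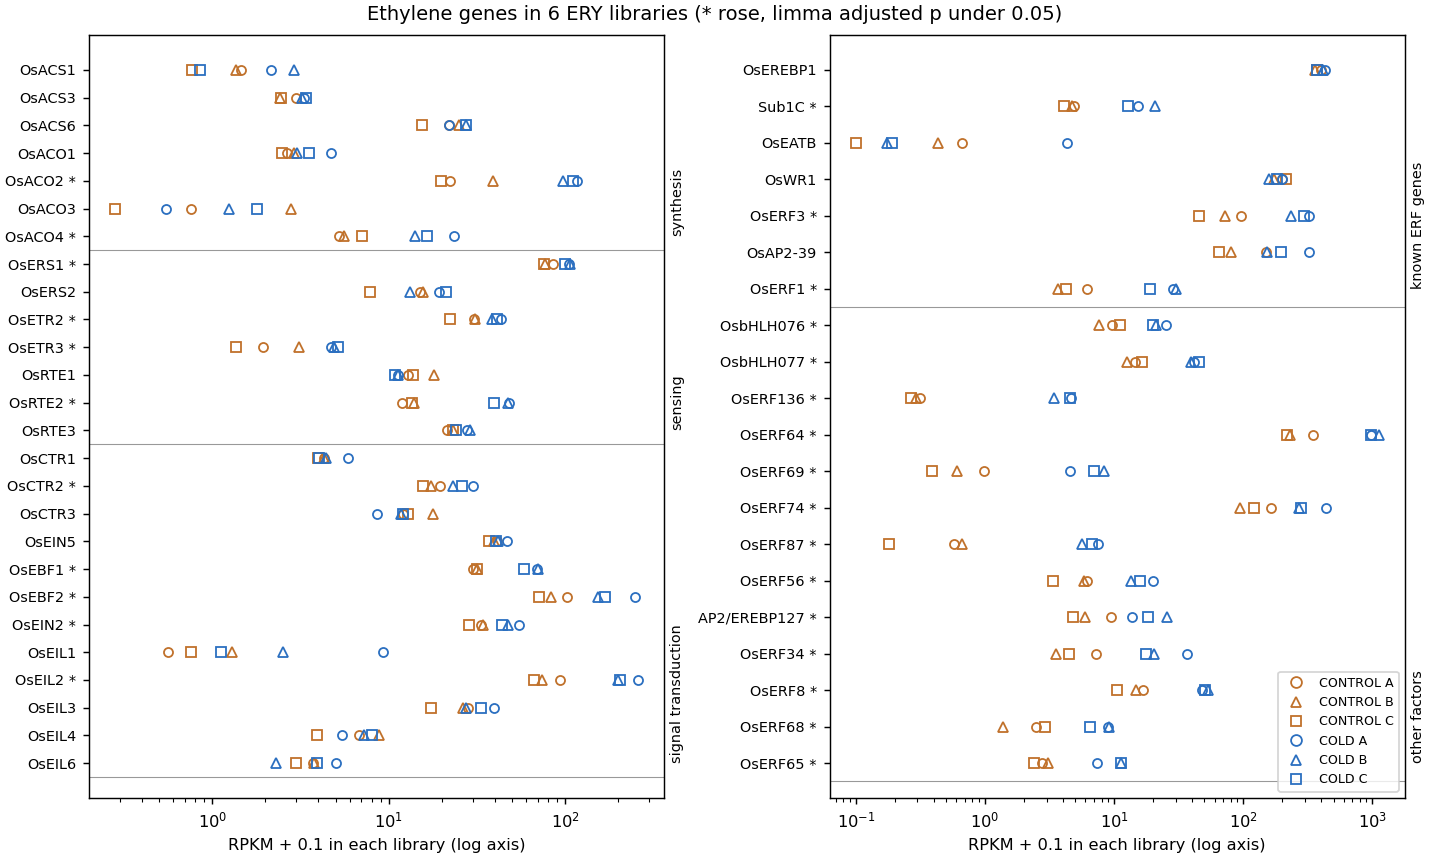
RPKM + 0.1 (log axis) of 46 measured ethylene genes in the 3 CONTROL (orange) and 3 COLD (blue) libraries of ERY, by section, with an asterisk for genes that rose. OsACO2, OsRTE2, OsEBF1, OsEIL2, OsERF1 and OsERF3 show separate groups, whereas OsEIL1 and OsEATB have 1 COLD library, A, far above the others.

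The groups by description that follow come from the genes that the study listed as changed in a cultivar. Those listed for ERY were chosen on these samples, and of 1013 tested 670 rose and 341 fell. Those listed for S.AND alone were absent from the ERY list, a choice that also used these samples, and of 432 tested 88 rose and 136 fell. Counts within either set are therefore descriptions of that choice and not independent evidence.

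Genes of calcium signalling changed in both directions. Calcium entry is an early step of cold sensing in plants, and calmodulin and EF-hand proteins bind the ion. Of 28 such genes that the study had listed as changed in ERY, 25 rose and 3 fell, beside 670 and 341 of all 1013 so listed. Of the 8 listed for S.AND alone 6 rose and 1 fell, beside 88 and 136 of all 432 so listed. The median log2 ratio of these 8 was 1.23, against -0.67 over the 432. An EF hand gene (LOC_Os07g43800) was at 0.838, 0.589 and 0.450 RPKM in CONTROL A, B and C and 16.3, 13.4 and 16.2 RPKM in COLD A, B and C (log2 difference 3.33 ± 0.16, adjusted p = 0.00067). A calmodulin binding protein gene (LOC_Os01g04280) was at 0.651, 0.617 and 0.217 RPKM in CONTROL A, B and C and 11.3, 8.52 and 7.18 RPKM in COLD A, B and C (log2 difference 2.73 ± 0.22, adjusted p = 0.0016). In both genes the COLD libraries were far above the CONTROL libraries. Among the genes listed for S.AND alone, OsCML14 (LOC_Os05g50180), a calmodulin-related sensor, had 2.17 to 4.25 RPKM in CONTROL and 7.42 to 13.8 RPKM in COLD (log2 difference 1.44 ± 0.30, adjusted p = 0.022), and the 1 gene that fell, for a sodium/calcium exchanger (LOC_Os12g42910, named after its values were seen), had 19.03, 15.7 and 29.2 RPKM in CONTROL against 7.96, 9.21 and 6.68 in COLD (log2 difference -1.28 ± 0.24, adjusted p = 0.016). OsCML31 (LOC_Os01g72530) had no overlap between groups but did not pass the test (adjusted p = 0.053), with CONTROL A at 14.1 RPKM against 2.503 and 2.97 RPKM in CONTROL B and C. The call of OsCML14 was lost in 4 of the 6 omissions of a library and that of the exchanger gene in 3.

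Protein kinase genes moved both ways. Of the 46 listed for ERY 40 rose and 6 fell, beside 670 and 341 of all 1013 so listed. Of the 23 listed for S.AND alone 9 rose and 8 fell (median -0.59), beside 88 and 136 of all 432 so listed. A gene described as a MEKK-type MAP kinase kinase kinase (LOC_Os03g18170) had 9.14 to 15.8 RPKM in CONTROL and 47.004 to 78.1 RPKM in COLD (log2 difference 2.17 ± 0.26, adjusted p = 0.0046), and a gene described as a CAMK-like kinase (LOC_Os02g41580) had the highest level of those named, 146, 120.3 and 126 RPKM in CONTROL A, B and C and 756, 622 and 628 RPKM in COLD A, B and C (log2 difference 2.34 ± 0.13, adjusted p = 0.00078). Of the genes listed for S.AND alone, LOC_Os08g18920 rose, with 1.81, 2.20 and 1.69 RPKM in CONTROL against 7.63, 6.78 and 6.96 in COLD (log2 difference 1.49 ± 0.15, adjusted p = 0.0024) and a leucine-rich repeat kinase gene (LOC_Os10g38800) fell, with 14.5 to 33.2 RPKM in CONTROL and 5.99 to 8.99 RPKM in COLD (log2 difference -1.45 ± 0.30, adjusted p = 0.022), a call lost in 3 of the 6 omissions of a library. All 8 genes for protein phosphatase 2C that were listed for ERY rose, where 670 of 1013 rose by the choice of that list. Some members of this family, not all, act against kinases in abscisic acid signalling. LOC_Os03g18150 had 30.4 to 63.6 RPKM in CONTROL and 125 to 183 RPKM in COLD (log2 difference 1.83 ± 0.28, adjusted p = 0.0083) and LOC_Os05g29030 had 14.98 to 22.4 RPKM in CONTROL and 54.3 to 64.3 RPKM in COLD (log2 difference 1.72 ± 0.16, adjusted p = 0.0023).

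Ubiquitin ligases mark proteins for degradation. Of 52 genes with such domains listed for ERY 42 rose and 10 fell, beside 670 and 341 of all 1013 so listed. Of 15 measured genes listed for S.AND alone 5 rose and 3 fell (median 0.36), beside 88 and 136 of all 432 so listed. A U-box gene (LOC_Os02g34410) was at 9.86, 4.97 and 4.08 RPKM in CONTROL A, B and C and 61.4, 49.1 and 33.9 RPKM in COLD A, B and C (log2 difference 2.79 ± 0.34, adjusted p = 0.0044). OsFBDUF13 (LOC_Os02g44990), an F-box gene, was at 3.97, 6.29 and 2.18 RPKM in CONTROL A, B and C and 25.02, 63.1 and 34.4 RPKM in COLD A, B and C (log2 difference 3.001 ± 0.42, adjusted p = 0.0062), with COLD B highest. In the other direction a RING-H2 gene (LOC_Os06g07100) fell, with 15.6, 26.03 and 15.5 RPKM in CONTROL against 2.06, 4.67 and 5.02 in COLD (log2 difference -2.05 ± 0.33, adjusted p = 0.0093). No library crossed between groups in these 3 genes.

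Transcription factors that the study had chosen as induced in at least 1 cultivar rose in 122 of 128 cases, with a median log2 ratio of 1.70 and 0 that fell (limma; 0 under voom and 0 lower at an unadjusted p under 0.05), again a choice made on these samples. By family the medians ran from 1.41 in 4 sigma factors, which direct the plastid RNA polymerase, to 3.65 in 7 WRKY genes. WRKY7 (LOC_Os05g46020) was at 3.82, 1.54 and 0.690 RPKM in CONTROL A, B and C and 50.9, 28.3 and 46.8 RPKM in COLD A, B and C (log2 difference 3.93 ± 0.41, adjusted p = 0.0029). A gene described as NAC domain-containing protein 67 (LOC_Os07g12340) was at 4.32, 3.14 and 2.02 RPKM in CONTROL A, B and C and 71.5, 56.3 and 44.6 RPKM in COLD A, B and C (log2 difference 3.83 ± 0.26, adjusted p = 0.0011). In both genes the highest CONTROL library was far under the lowest COLD library. A heat shock factor gene listed for S.AND alone (LOC_Os02g32590) rose as well, with 4.36 to 6.94 RPKM in CONTROL and 13.7 to 28.7 RPKM in COLD (log2 difference 1.64 ± 0.31, adjusted p = 0.016). Factor genes outside this induced list also fell. Of 5 heat shock factor genes listed for ERY by description, 3 rose and 2 fell. LOC_Os09g35790 fell, with 10.5, 12.6 and 11.03 RPKM in CONTROL against 1.86, 1.76 and 1.69 in COLD (log2 difference -2.16 ± 0.14, adjusted p = 0.001). A MYB gene (LOC_Os12g07640) fell, with 11.3, 16.9 and 11.3 RPKM in CONTROL against 1.31, 1.87 and 2.96 in COLD (log2 difference -2.23 ± 0.26, adjusted p = 0.0038).

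Genes of auxin and jasmonate followed. Of 19 auxin genes listed for ERY, 17 rose and 2 fell, beside 670 and 341 of all 1013 so listed. An auxin responsive protein gene (LOC_Os09g32984) was among those that fell, with a log2 ratio of -2.49. OsGH3.8 (LOC_Os07g40290), which encodes a probable enzyme joining auxin to amino acids, was at 64.7, 63.8 and 86.95 RPKM in CONTROL A, B and C and 494, 365 and 305 RPKM in COLD A, B and C (log2 difference 2.40 ± 0.21, adjusted p = 0.0018). OsGH3.1 (LOC_Os01g57610), of the same family, had 1.46 to 3.20 RPKM in CONTROL and 7.69 to 14.6 RPKM in COLD (log2 difference 1.95 ± 0.29, adjusted p = 0.0078). OsSAUR33 (LOC_Os08g35110) was at 10.9, 7.44 and 12.1 RPKM in CONTROL A, B and C and 71.7, 88.8 and 52.3 RPKM in COLD A, B and C (log2 difference 2.68 ± 0.24, adjusted p = 0.002), and OsIAA6 (LOC_Os01g53880), of the family of auxin-response repressors, had 4.36 to 8.41 RPKM in CONTROL and 19.3 to 41.8 RPKM in COLD (log2 difference 1.93 ± 0.33, adjusted p = 0.012). OsIAA14 (LOC_Os03g58350), listed for S.AND alone, rose, with 203, 272 and 206 RPKM in CONTROL against 310.4, 413 and 480.1 in COLD (log2 difference 0.81 ± 0.20, adjusted p = 0.036), a call lost in 4 of the 6 omissions. All 3 jasmonate genes listed for ERY rose. A gene for 12-oxophytodienoate reductase (LOC_Os06g11290), an enzyme family of jasmonate synthesis, was at 3.51, 4.39 and 1.34 RPKM in CONTROL A, B and C and 38.8, 31.99 and 34.02 RPKM in COLD A, B and C (log2 difference 3.22 ± 0.31, adjusted p = 0.0024), and a ZIM domain gene (LOC_Os10g25290), of the family that includes repressors of jasmonate signalling, had 10.2 to 12.03 RPKM in CONTROL and 21.3 to 31.7 RPKM in COLD (log2 difference 1.12 ± 0.17, adjusted p = 0.0086). A jasmonate O-methyltransferase gene (LOC_Os04g56950), listed for S.AND alone, fell, with 9.26, 11.3 and 14.3 RPKM in CONTROL against 4.88, 4.51 and 4.82 in COLD (log2 difference -1.12 ± 0.17, adjusted p = 0.0087).

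Gibberellin genes moved in both directions. GASR2 (LOC_Os03g41060), of a family of gibberellin-regulated genes, fell, with 115, 142 and 182 RPKM in CONTROL against 53.6, 53.9 and 64.2 in COLD (log2 difference -1.32 ± 0.18, adjusted p = 0.0057). A gene described as gibberellin receptor GID1L2 (LOC_Os09g28690) fell, with 268, 268 and 374 RPKM in CONTROL against 74.98, 52.8 and 68.9 in COLD (log2 difference -2.19 ± 0.19, adjusted p = 0.0018), while another with that description (LOC_Os03g15270) had 2.89 to 4.90 RPKM in CONTROL and 8.49 to 13.2 RPKM in COLD (log2 difference 1.40 ± 0.23, adjusted p = 0.011) and one more, listed for S.AND alone (LOC_Os08g37040), fell with 29.7 to 54.7 RPKM in CONTROL and 15.4 to 18.5 RPKM in COLD (log2 difference -1.19 ± 0.22, adjusted p = 0.015), a call lost without COLD A.

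All 6 phosphate genes listed for ERY, where 670 of 1013 rose by the choice of that list, rose, with a median log2 ratio of 3.40 against 1.23 for the whole list. SPX domain proteins take part in the sensing of phosphate. LOC_Os02g10780 was at 16.7, 24.4 and 18.01 RPKM in CONTROL A, B and C and 226, 179 and 174 RPKM in COLD A, B and C (log2 difference 3.23 ± 0.17, adjusted p = 0.00078). LOC_Os06g40120 was at 24.9, 24.4 and 16.2 RPKM in CONTROL A, B and C and 239, 147 and 156 RPKM in COLD A, B and C (log2 difference 2.98 ± 0.24, adjusted p = 0.0016). LOC_Os10g25310 had 0.0666 to 0.173 RPKM in CONTROL and 5.37 to 12.5 RPKM in COLD (log2 difference 3.02 ± 0.29, adjusted p = 0.0022) and LOC_Os03g29250 had 0.546 to 0.781 RPKM in CONTROL and 7.005 to 7.93 RPKM in COLD (log2 difference 2.35 ± 0.15, adjusted p = 0.00099). The CONTROL and COLD libraries of these 4 SPX genes were far apart, and each gene kept its call when any 1 library was left out. A purple acid phosphatase gene (LOC_Os08g17784), of a family that frees phosphate from organic compounds, was named after its values were seen, to complete the group, and rose less, with 10.2 to 12.5 RPKM in CONTROL and 21.2 to 31.1 RPKM in COLD (log2 difference 1.11 ± 0.16, adjusted p = 0.0073). An inorganic phosphate transporter gene listed for S.AND alone (LOC_Os08g45000) had 2.36 to 7.69 RPKM in CONTROL and 8.72 to 15.2 RPKM in COLD and did not pass the test (adjusted p = 0.091). The sixth listed gene, a phosphoethanolamine/phosphocholine phosphatase (LOC_Os01g52230), was at 16.5, 7.92 and 11.6 RPKM in CONTROL A, B and C and 445, 398 and 345 RPKM in COLD A, B and C (log2 difference 4.98 ± 0.25, adjusted p = 0.00067).

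Transporter genes rose in 24 and fell in 10 of 34 cases listed for ERY, and rose in 3 and fell in 1 of 12 listed for S.AND alone, beside 670 and 341 of all 1013 listed for ERY and 88 and 136 of all 432 listed for S.AND alone. A peptide transporter gene (LOC_Os03g04570) had 0.624 to 1.38 RPKM in CONTROL and 7.45 to 15.1 RPKM in COLD (log2 difference 2.58 ± 0.28, adjusted p = 0.0032), and a major facilitator gene (LOC_Os04g46880) was at 12.4, 17.8 and 9.61 RPKM in CONTROL A, B and C and 143, 94.1 and 94.9 RPKM in COLD A, B and C (log2 difference 2.98 ± 0.25, adjusted p = 0.0018). An aquaporin gene listed for S.AND alone (LOC_Os07g26630), of the family of water channels, fell, with 14.2, 8.68 and 32.01 RPKM in CONTROL against 2.54, 1.93 and 1.16 in COLD (log2 difference -2.59 ± 0.45, adjusted p = 0.013). CONTROL C was its highest library and CONTROL B its lowest CONTROL library, and its call was lost without COLD C.

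Starch and sugar genes, a list of 42 that the study took from the literature, changed little as a group. Of 39 tested, 2 rose and 4 fell, and the median log2 ratio was -0.09 against 0.03 over all genes, with 9.94% of all genes rising and 8.35% falling. In the supply of ADP-glucose, the building block of starch, OsAGPL2 (LOC_Os01g44220), a large subunit of ADP-glucose pyrophosphorylase, fell, with 23.1, 24.9 and 23.03 RPKM in CONTROL against 11.3, 11.7 and 11.96 in COLD (log2 difference -0.96 ± 0.10, adjusted p = 0.0026). OsAGPL3 (LOC_Os03g52460), another large subunit, had 2.43 to 4.001 RPKM in CONTROL and 5.54 to 10.4 RPKM in COLD and missed the threshold (adjusted p = 0.055). The other 6 genes of this section, which also holds the UDP-glucose supply genes OsUGP1 and OsUGP2, had log2 ratios of -0.23 to 0.38.

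Starch synthases changed in both directions. OsSSIIIa (LOC_Os08g09230) fell, with 27.5, 35.4 and 21.6 RPKM in CONTROL against 8.16, 13.5 and 13.3 in COLD (log2 difference -1.21 ± 0.25, adjusted p = 0.021). OsGBSSII (LOC_Os07g22930), a granule-bound synthase, fell, with 36.4, 52.1 and 31.97 RPKM in CONTROL against 21.6, 21.4 and 24.7 in COLD (log2 difference -0.78 ± 0.19, adjusted p = 0.034). OsSSI (LOC_Os06g06560) fell by less, with 62.8 to 76.1 RPKM in CONTROL and 47.9 to 53.2 RPKM in COLD (log2 difference -0.44 ± 0.10, adjusted p = 0.03). These 3 calls were each lost in 3 to 5 of the 6 omissions of a library. OsSSIVa (LOC_Os01g52260) rose, with 8.56, 6.82 and 9.83 RPKM in CONTROL against 26.2, 21.7 and 18.6 in COLD (log2 difference 1.30 ± 0.18, adjusted p = 0.0062), with no overlap between groups. RSR1 (LOC_Os05g03040), an AP2-type regulator that represses starch synthesis genes in rice seeds, was at 24.8, 28.1 and 22.2 RPKM in CONTROL A, B and C and 73.1, 114 and 113 RPKM in COLD A, B and C (log2 difference 1.93 ± 0.20, adjusted p = 0.0026). Of the 6 branching and debranching enzymes and the 4 phosphorylases and disproportionating enzymes measured, 0 passed the limma test, while 2 branching and debranching enzymes had an unadjusted p under 0.05, and these 2 fell under voom.

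Sugar transport and invertase genes held large differences between libraries of one group. OsINV4 (LOC_Os04g33720), a cell wall invertase of anthers, was at 7.04, 218 and 3.64 RPKM in CONTROL A, B and C and 4.36, 27.8 and 32.1 RPKM in COLD A, B and C. The ratio of means, a log2 ratio of -1.83, was set by CONTROL B, and the adjusted p was 0.94. OsGBSSI (LOC_Os06g04200) and OsPHOH (LOC_Os01g63270), a starch phosphorylase, were likewise highest in CONTROL B, at 1.64, 12.4 and 1.38 RPKM in CONTROL against 0.744, 4.13 and 2.92 in COLD and at 17.2, 96.6 and 12.4 RPKM in CONTROL against 16.1, 23.6 and 25.5 in COLD. OsMST7 (LOC_Os01g38680), a monosaccharide transporter gene, went the other way and was lowest in CONTROL B and COLD C, at 443, 128 and 624 RPKM in CONTROL against 889.7, 461 and 307 in COLD, as was the sucrose transporter gene OsSUT5 (LOC_Os02g36700), at 21.3, 7.39 and 32.5 RPKM in CONTROL against 49.1, 35.2 and 13.1 in COLD. In CONTROL 7 of the 39 genes (17.9%) had a CV of at least 50%, against 12.1% of all genes tested. CSA (LOC_Os01g16810), a MYB factor of sugar partitioning to anthers, had 246, 166 and 386 RPKM in CONTROL against 328, 356 and 387 in COLD and did not pass the test (adjusted p = 0.29).

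By description, sugar and starch genes listed for ERY rose in 10 and fell in 2 of 12 cases, beside 670 and 341 of all 1013 so listed. The falling genes were OsAGPL2 and OsSSIIIa. A trehalose-6-phosphate synthase gene (LOC_Os02g54820) was at 37.9, 33.6 and 28.1 RPKM in CONTROL A, B and C and 140.4, 130.4 and 109.7 RPKM in COLD A, B and C (log2 difference 1.91 ± 0.15, adjusted p = 0.0014). A gene described as trehalose synthase (LOC_Os09g23350) had 18.6 to 23.4 RPKM in CONTROL and 68.3 to 89.9 RPKM in COLD (log2 difference 1.83 ± 0.15, adjusted p = 0.0016), and a plant neutral invertase gene (LOC_Os11g07440), of a family that splits sucrose, had 7.82 to 11.1 RPKM in CONTROL and 33.1 to 45.8 RPKM in COLD (log2 difference 1.86 ± 0.18, adjusted p = 0.0023). The groups of these 3 genes did not overlap.

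**Figure D3:**
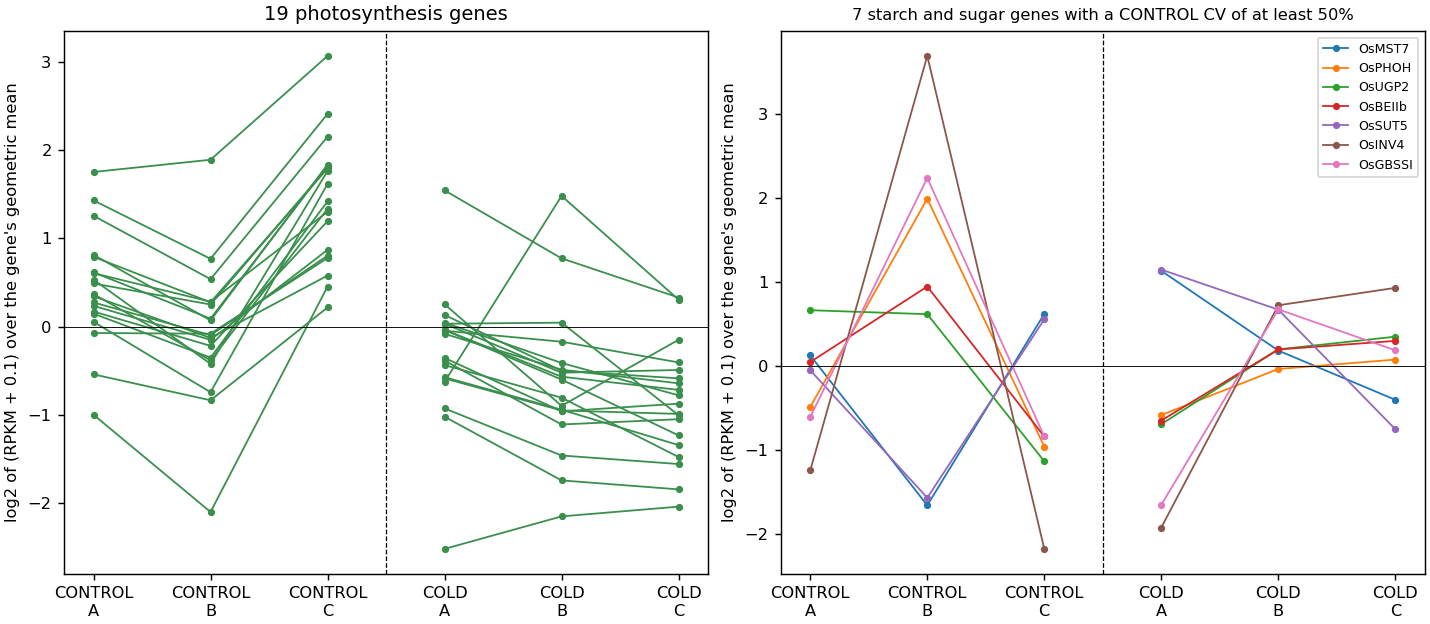
The log2 of RPKM + 0.1 in each library over the gene's geometric mean in all 6 libraries, with a line joining the libraries of 1 group for each gene. On the left, all 19 photosynthesis genes listed for S.AND alone were highest among CONTROL libraries in CONTROL C; on the right, 7 starch and sugar genes had a CONTROL CV of at least 50%, and OsINV4, OsGBSSI, OsPHOH and OsBEIIb peaked in CONTROL B while OsMST7 and OsSUT5 were lowest there.

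Anther development genes, 45 that the study took from the literature, included 41 that were measured and 31 that could be tested. Of these 2 rose (6.45%) and 3 fell (9.68%), near the 9.94% and 8.35% of all genes, and the median log2 ratio of the 41 was 0.09. Among receptors and their ligand, OsMSP1 (LOC_Os01g68870), a receptor kinase known to restrict spore-forming cell number, fell, with 38.5, 35.3 and 37.9 RPKM in CONTROL against 17.5, 20.3 and 16.6 in COLD (log2 difference -1.003 ± 0.11, adjusted p = 0.0032). OsTDL1A (LOC_Os12g28750), its peptide ligand, had 8.41, 13.8 and 3.99 RPKM in CONTROL against 7.003, 16.4 and 17.2 in COLD, and its groups overlapped (adjusted p = 0.43). TMS10L (LOC_Os03g49620), a receptor-like kinase gene of tapetum development, rose, with 29.1, 20.4 and 26.9 RPKM in CONTROL against 49.3, 38.8 and 38.1 in COLD (log2 difference 0.71 ± 0.17, adjusted p = 0.033), a call lost in each omission of a library, while TMS10 (LOC_Os02g18320) had 16.5 to 17.8 RPKM in CONTROL and 19.8 to 20.7 RPKM in COLD (adjusted p = 0.15).

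Among the 10 tapetum and microspore transcription factors measured, TIP3 (LOC_Os03g50780), a PHD-finger regulator of tapetum breakdown, was at 7.59, 6.31 and 8.35 RPKM in CONTROL A, B and C and 29.1, 21.8 and 21.03 RPKM in COLD A, B and C (log2 difference 1.56 ± 0.17, adjusted p = 0.0032). EAT1 (LOC_Os04g51070), a bHLH factor that promotes tapetal cell death, was at 219.9, 176 and 184 RPKM in CONTROL A, B and C and 94.7, 105 and 79.9 RPKM in COLD A, B and C (log2 difference -1.04 ± 0.14, adjusted p = 0.0056). The groups of both genes were separate, in opposite directions. TDR (LOC_Os02g02820), a bHLH factor acting before EAT1, had 317, 283 and 499.6 RPKM in CONTROL against 279, 292 and 224 in COLD with overlap (adjusted p = 0.25). PTC1 (LOC_Os09g27620), a second PHD-finger factor, had 0.863 to 2.001 RPKM in CONTROL and 2.31 to 3.67 RPKM in COLD and a log2 ratio of 1.07 without passing the test (adjusted p = 0.081). UDT1 (LOC_Os07g36460) and TIP2 (LOC_Os01g18870), bHLH factors that act earlier in the tapetum, had 45.8 to 48.3 RPKM in CONTROL and 48.03 to 58.6 RPKM in COLD and 28.6 to 43.2 RPKM in CONTROL and 30.6 to 34.2 RPKM in COLD, and neither passed the test.

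DTC1 (LOC_Os07g35610), needed for tapetum cell death, fell, with 18.6, 23.6 and 20.9 RPKM in CONTROL against 11.97, 10.8 and 12.5 in COLD (log2 difference -0.78 ± 0.13, adjusted p = 0.0096), while OsCP1 (LOC_Os04g57490), a cysteine protease gene, had 3.50 to 5.73 RPKM in CONTROL and 6.16 to 9.44 RPKM in COLD without passing the test (adjusted p = 0.14). In callose and wall sugar metabolism 0 of 6 tested genes passed in limma (3 lower at an unadjusted p under 0.05 and 1 of them under voom), and in pollen wall lipid synthesis and export 0 of 5 passed (1 lower at an unadjusted p under 0.05 and 0 under voom). The callose synthase gene GSL5 (LOC_Os06g08380) had 204, 213 and 155 RPKM in CONTROL against 122, 154 and 149 in COLD (adjusted p = 0.12) and the glucanase gene OsG1 (LOC_Os01g71930) had 6.76, 6.10 and 6.31 RPKM in CONTROL against 4.75, 3.90 and 4.18 in COLD (adjusted p = 0.053); neither overlapped between groups. Of the 13 measured genes for pollen wall lipids 8 belonged to the abundant genes with means alone. OsACOS12 (LOC_Os04g24530), a fatty acyl-CoA synthetase, had means of 549 RPKM in CONTROL and 749 RPKM in COLD, CYP704B2 (LOC_Os03g07250), a fatty acid hydroxylase, 657 and 600.0 RPKM, and OsC4 (LOC_Os08g43290) 1305 and 1739.5 RPKM. PDA1 (LOC_Os06g40550), which encodes an ABC transporter of wall lipids, was tested and differed more within CONTROL than between groups, at 114, 57.9 and 208 RPKM in CONTROL against 164, 208 and 104 in COLD.

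**Figure D4:**
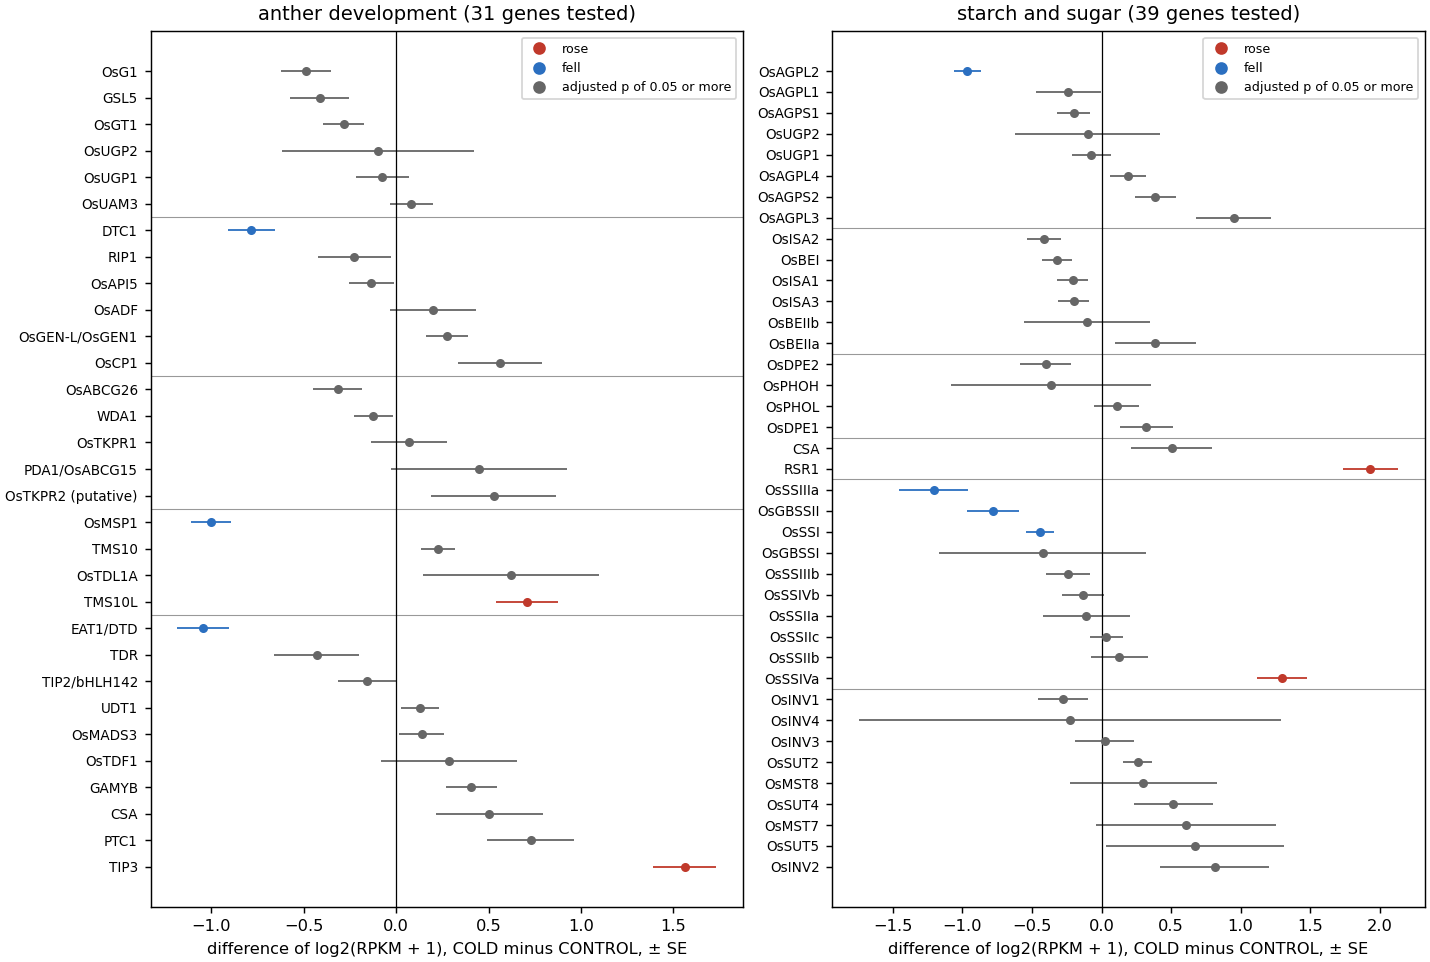
Difference of log2(RPKM + 1), COLD minus CONTROL, with its limma standard error for 31 anther development genes and 39 starch and sugar genes, with lines between functional sections. TIP3 and TMS10L rose and OsMSP1, EAT1 and DTC1 fell on the left; RSR1 and OsSSIVa rose and OsAGPL2, OsSSIIIa, OsGBSSII and OsSSI fell on the right, and OsINV4 has the widest error.

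The CONTROL libraries differed widely in photosynthesis genes. Of 19 listed for S.AND alone, 7 fell and 0 rose in limma, near the 136 of 432 that fell over all genes so listed. Under voom 0 rose, and 1 was higher at an unadjusted p under 0.05 in limma. By the ratio of means 10 were at least 2-fold lower and 2 at least 2-fold higher, beside 120 and 61 of all 432 so listed. The 2 higher genes did not pass the test. The median log2 ratio of the 19 genes was -1.02, against -0.67 for all genes listed for S.AND alone. A chlorophyll A-B binding protein gene (LOC_Os07g37240), of the light-harvesting antenna, was at 91.3, 57.7 and 180.1 RPKM in CONTROL A, B and C and 16.6, 10.04 and 9.35 RPKM in COLD A, B and C (log2 difference -2.98 ± 0.42, adjusted p = 0.0067). Another (LOC_Os08g33820) was at 108, 65.6 and 201 RPKM in CONTROL A, B and C and 23.7, 16.4 and 15.3 RPKM in COLD A, B and C (log2 difference -2.57 ± 0.40, adjusted p = 0.0087). The 3 COLD libraries lay below the 3 CONTROL libraries in both, and CONTROL C was the highest library and CONTROL B the lowest CONTROL library. All 19 genes were highest among the CONTROL libraries in CONTROL C, as were 26.5% of all genes tested and 50.7% of those listed for S.AND alone, and their median CONTROL CV was 55.8% against 16.6%. Without CONTROL C 7 of the 19 fell and 1 rose, and the omission of other libraries gave 3 to 8 that fell. Of 3 genes listed for ERY that the words of their descriptions placed in this group, 1 rose and 2 fell. The gene that rose encodes ferredoxin-nitrite reductase (LOC_Os01g25484), an enzyme of nitrate assimilation in plastids and not of photosynthesis. It had 25.5, 21.1 and 29.8 RPKM in CONTROL against 69.2, 52.4 and 57.8 in COLD (log2 difference 1.20 ± 0.16, adjusted p = 0.0055). An antenna gene (LOC_Os04g59440) fell, with 179, 171 and 295 RPKM in CONTROL against 56.9, 45.4 and 48.99 in COLD (log2 difference -2.03 ± 0.22, adjusted p = 0.0033).

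Of 15 genes of light response and the clock listed for ERY, 14 rose and 1 fell, beside 670 and 341 of all 1013 so listed. The 2 listed for S.AND alone did not pass the test, with log2 ratios of -0.94 and 0.40. A CCT/B-box zinc finger gene (LOC_Os06g19444), of a family with flowering time and light regulators, was at 14.1, 12.1 and 12.8 RPKM in CONTROL A, B and C and 81.1, 74.9 and 73.3 RPKM in COLD A, B and C (log2 difference 2.47 ± 0.10, adjusted p = 0.00043). A response regulator gene (LOC_Os09g36220) was at 34.1, 32.9 and 20.8 RPKM in CONTROL A, B and C and 114, 129 and 126 RPKM in COLD A, B and C (log2 difference 2.06 ± 0.19, adjusted p = 0.0022). Neither gene had overlapping groups. Of clock genes, named after their values were seen, GIGANTEA (LOC_Os01g08700) had 59.9 to 75.1 RPKM in CONTROL and 136 to 139 RPKM in COLD (log2 difference 1.014 ± 0.10, adjusted p = 0.0027), and the gene described as ELF3 protein (LOC_Os01g38530) had 13.8 to 21.4 RPKM in CONTROL and 44.2 to 49.8 RPKM in COLD (log2 difference 1.36 ± 0.16, adjusted p = 0.0043).

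Cell wall genes went both ways. Of 16 listed for ERY 6 rose and 10 fell, beside 670 and 341 of all 1013 so listed. Of 13 listed for S.AND alone 1 rose and 4 fell, near the 136 of 432 that fell over all genes so listed. Glycosyl hydrolase family 16, which includes enzymes that reshape xyloglucan in the wall, had 3 genes that rose and 1 that fell. LOC_Os04g51460 was at 112, 38.4 and 106 RPKM in CONTROL A, B and C and 709.7, 615 and 396 RPKM in COLD A, B and C (log2 difference 2.84 ± 0.44, adjusted p = 0.0087), and LOC_Os06g48160 was at 40.3, 17.5 and 24.6 RPKM in CONTROL A, B and C and 231, 185 and 119.5 RPKM in COLD A, B and C (log2 difference 2.69 ± 0.35, adjusted p = 0.0053). Expansins are proteins that loosen the wall. The expansin gene LOC_Os02g44108 fell, with 9.72, 16.2 and 9.07 RPKM in CONTROL against 1.56, 2.02 and 2.12 in COLD (log2 difference -2.09 ± 0.24, adjusted p = 0.0037), and the expansin gene LOC_Os03g01270, listed for S.AND alone, fell, with 22.8, 14.8 and 51.9 RPKM in CONTROL against 4.62, 3.52 and 3.74 in COLD (log2 difference -2.46 ± 0.42, adjusted p = 0.012), with CONTROL C highest.

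Among lipid genes 7 rose and 6 fell of 13 tested that were listed for ERY, beside 670 and 341 of all 1013 so listed. In limma 0 rose and 3 fell (23.1%) of 13 listed for S.AND alone, under the 31.5% of all 432 so listed that fell. Of these 13, 0 rose under voom and 0 were higher at an unadjusted p under 0.05. A fatty acid hydroxylase gene (LOC_Os03g01820) rose, with 6.10, 4.06 and 6.30 RPKM in CONTROL against 19.9, 14.8 and 16.04 in COLD (log2 difference 1.47 ± 0.19, adjusted p = 0.0055). A GDSL-like lipase gene listed for S.AND alone (LOC_Os06g47910) fell, with 11.8, 17.5 and 6.38 RPKM in CONTROL against 1.09, 1.23 and 2.10 in COLD (log2 difference -2.31 ± 0.36, adjusted p = 0.0085). A lipase gene listed for ERY (LOC_Os11g09010) rose, with 14.1, 8.14 and 9.14 RPKM in CONTROL against 57.2, 45.8 and 37.9 in COLD (log2 difference 2.08 ± 0.23, adjusted p = 0.0035). Redox enzymes listed for ERY rose in 8 and fell in 6 of 14 cases. In limma those listed for S.AND alone fell in 2 (25%) and rose in 0 of 8, also under the 31.5% of all 432 so listed that fell. Of these 8, 0 rose under voom and 0 were higher at an unadjusted p under 0.05. The glutaredoxin gene OsGrx_I1 (LOC_Os01g47760) had 24.4 to 48.5 RPKM in CONTROL and 142 to 244 RPKM in COLD (log2 difference 2.43 ± 0.29, adjusted p = 0.0045). Genes for glutathione S-transferase, which joins glutathione to reactive compounds, included LOC_Os09g20220, with 0.252 to 1.15 RPKM in CONTROL and 4.51 to 9.90 RPKM in COLD (log2 difference 2.15 ± 0.33, adjusted p = 0.0081), and LOC_Os01g27210, with 10.4 to 21.6 RPKM in CONTROL and 59.6 to 78.8 RPKM in COLD (log2 difference 2.14 ± 0.26, adjusted p = 0.0043).

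Chaperone genes listed for ERY fell in 12 and rose in 5 of 17 cases, and those listed for S.AND alone fell in 4 and rose in 1 of 6. Over all genes so listed, 341 of 1013 and 136 of 432 fell. Of the first set, an activator of the 90 kDa heat shock protein (LOC_Os02g04650) fell, with 26.97, 28.2 and 26.4 RPKM in CONTROL against 5.74, 7.20 and 7.25 in COLD (log2 difference -1.87 ± 0.12, adjusted p = 0.0011). Of the second, a related activator (LOC_Os08g36150) fell, with 32.4, 27.6 and 34.6 RPKM in CONTROL against 19.96, 18.96 and 16.1 in COLD (log2 difference -0.75 ± 0.13, adjusted p = 0.013), a call lost without CONTROL A, and an FKBP-type peptidyl-prolyl isomerase gene (LOC_Os01g62610), which helps proteins to fold, fell, with 8.95, 7.85 and 7.19 RPKM in CONTROL against 2.41, 2.32 and 2.35 in COLD (log2 difference -1.42 ± 0.14, adjusted p = 0.0025). Against this direction, an hsp20 gene (LOC_Os02g10710) rose, with 1.56, 1.40 and 1.93 RPKM in CONTROL against 12.8, 18.4 and 12.3 in COLD (log2 difference 2.54 ± 0.19, adjusted p = 0.0014).

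RNA processing genes listed for ERY divided into 11 that rose and 9 that fell. Of all 1013 genes listed for ERY 670 rose and 341 fell, and of all 432 listed for S.AND alone 88 rose and 136 fell. The splicing factor gene SF2 (LOC_Os01g21420) fell, with 17.4, 23.2 and 13.6 RPKM in CONTROL against 3.29, 3.19 and 3.83 in COLD (log2 difference -2.08 ± 0.20, adjusted p = 0.0025), and the RNA recognition motif gene LOC_Os02g40900 fell, with 52.5, 66.6 and 34.4 RPKM in CONTROL against 9.69, 11.8 and 13.7 in COLD (log2 difference -1.998 ± 0.25, adjusted p = 0.0049). A pentatricopeptide gene (LOC_Os03g58100), of a family that processes organelle RNA, rose, with 3.59, 3.10 and 2.95 RPKM in CONTROL against 20.4, 14.3 and 14.8 in COLD (log2 difference 2.04 ± 0.17, adjusted p = 0.0018). Proteases listed for ERY rose in 9 and fell in 2 of 11 cases. An ATP-dependent protease gene (LOC_Os03g29540) rose, with 3.88, 4.001 and 3.58 RPKM in CONTROL against 14.3, 17.2 and 14.99 in COLD (log2 difference 1.77 ± 0.13, adjusted p = 0.0013), OsLonP4 (LOC_Os09g36300), a Lon protease gene listed for S.AND alone, rose, with 55.3, 56.2 and 51.6 RPKM in CONTROL against 104, 112 and 106 in COLD (log2 difference 0.97 ± 0.08, adjusted p = 0.0018), and OsSub51 (LOC_Os06g41880), a putative subtilisin gene, fell, with 16.4, 18.8 and 16.6 RPKM in CONTROL against 4.48, 4.93 and 4.60 in COLD (log2 difference -1.68 ± 0.12, adjusted p = 0.0012). Cytochrome P450 genes rose in 11 and fell in 5 of 17 tested that were listed for ERY, with 18.4 to 21.6 RPKM in CONTROL and 88.9 to 112 RPKM in COLD in LOC_Os03g40540 (log2 difference 2.23 ± 0.13, adjusted p = 0.00078). Of 5 defence genes listed for S.AND alone 2 rose and 1 fell, with a median log2 ratio of -1.53. The 4 listed for ERY rose, among them a thaumatin gene (LOC_Os08g43510) with 27.9 to 31.5 RPKM in CONTROL and 81.97 to 114 RPKM in COLD (log2 difference 1.58 ± 0.15, adjusted p = 0.0021).

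**Figure D5:**
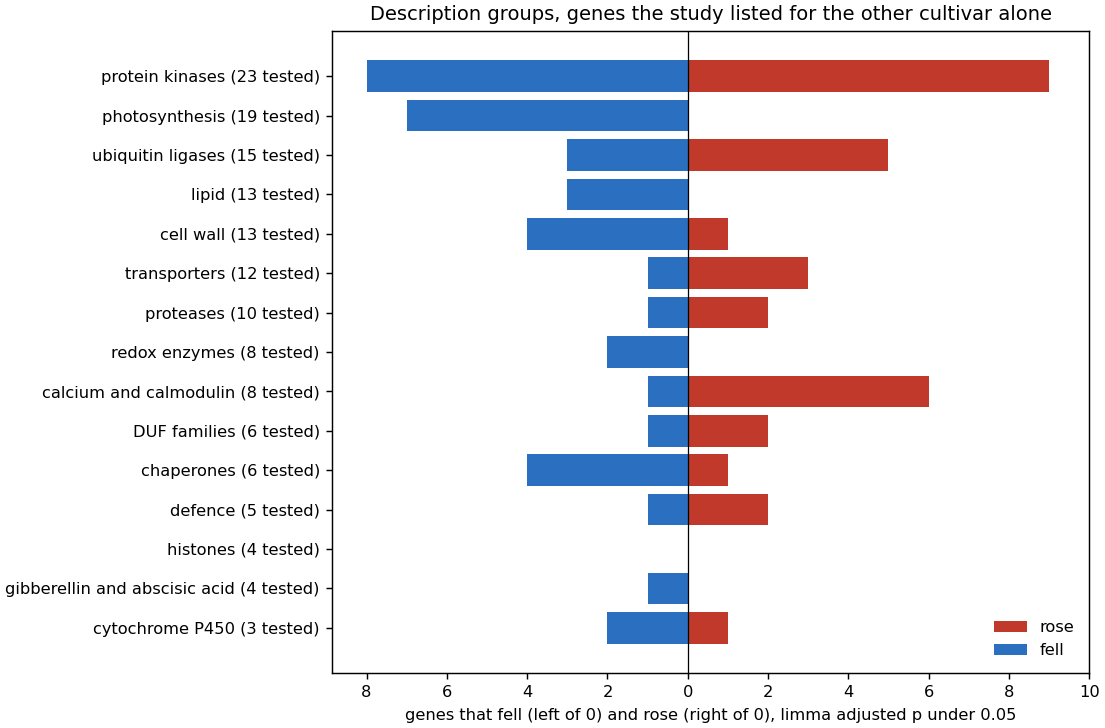
Number of genes that fell (blue, left of 0) and rose (red, right of 0) in ERY, limma adjusted p under 0.05, in groups by description of genes that the study listed for S.AND alone, with the number tested in brackets and groups under 3 genes left out. Calcium and calmodulin genes rose in 6 of 8 cases, kinases went both ways (9 and 8), and photosynthesis genes fell in 7 of 19 with 0 that rose, beside 88 that rose and 136 that fell of all 432 so listed.

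Descriptions came from the lists above and covered 1449 of the 23936 genes, so 68.0% of the genes that rose and 76.1% of those that fell had none. Of identifiers without a named product, LOC_Os03g14440 rose, with 0.106, 0.143 and 0.0819 RPKM in CONTROL against 11.5, 15.4 and 6.05 in COLD (log2 difference 3.35 ± 0.31, adjusted p = 0.0022) and LOC_Os05g11860 fell, with 13.2, 7.51 and 31.1 RPKM in CONTROL against 0.885, 1.81 and 1.39 in COLD (log2 difference -2.75 ± 0.47, adjusted p = 0.012). By ratio alone LOC_Os04g56430 had a log2 ratio of 5.83 but overlapping groups, at 0.289, 0.519 and 2.03 RPKM in CONTROL against 0.108, 95.5 and 65.2 in COLD (adjusted p = 0.21), and LOC_Os05g16395 had -5.64 from CONTROL B alone, at 0, 37.4 and 0 RPKM in CONTROL against 0, 0.343 and 0.408 in COLD. Among described genes with at least 10 RPKM, PLA IIIA/PLP7 (LOC_Os03g43880), a patatin-like phospholipase gene, rose, with 5.29, 1.33 and 1.26 RPKM in CONTROL against 60.6, 31.2 and 28.3 in COLD (log2 difference 3.59 ± 0.47, adjusted p = 0.0055), and a phosphoesterase family gene (LOC_Os03g63580) rose, with 0.668, 2.36 and 1.09 RPKM in CONTROL against 23.7, 27.4 and 19.1 in COLD (log2 difference 3.41 ± 0.28, adjusted p = 0.0017). An alpha/beta hydrolase gene (LOC_Os04g37680) fell, with 21.6, 13.4 and 72.4 RPKM in CONTROL against 1.52, 3.47 and 2.86 in COLD (log2 difference -3.03 ± 0.59, adjusted p = 0.018), a call lost without CONTROL A, COLD A or COLD C, and a heavy metal-associated domain gene (LOC_Os01g61070) fell, with 22.7, 47.7 and 19.8 RPKM in CONTROL against 3.70, 4.88 and 4.38 in COLD (log2 difference -2.44 ± 0.32, adjusted p = 0.0055).

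In absolute RPKM the transcriptome kept its leading genes. The same 10 genes had the highest means in both groups and took 10.99% of the CONTROL sum and 9.28% of the COLD sum. OsC6, a lipid transfer protein of the pollen wall, was among them; none of the 10 could be tested. The largest gains among tested genes were those of LOC_Os04g50970, at 1056, 1251 and 1379 RPKM in CONTROL A, B and C and 2053, 2671 and 2610.4 RPKM in COLD A, B and C (log2 difference 0.99 ± 0.17, adjusted p = 0.013, lost without COLD B or COLD C), of a haloacid dehalogenase-like hydrolase gene (LOC_Os03g16670), at 167, 216 and 178 RPKM in CONTROL against 1117, 1410.1 and 828 in COLD (log2 difference 2.55 ± 0.21, adjusted p = 0.0017), and of an auxin-repressed protein gene (LOC_Os11g44810), at 233, 318 and 209 RPKM in CONTROL against 1141, 1133 and 1234 in COLD (log2 difference 2.23 ± 0.17, adjusted p = 0.0014). The largest loss among tested genes was that of a caleosin related gene (LOC_Os06g14350), of a family of oil body proteins, which fell, with 1308, 1615 and 927 RPKM in CONTROL against 359.9, 442 and 515 in COLD (log2 difference -1.52 ± 0.24, adjusted p = 0.0087). Among genes with means alone, LOC_Os01g41140 had the largest loss, from 26491 RPKM in CONTROL to 16561 RPKM in COLD. LOC_Os08g45150 had the largest gain, from 5136 RPKM in CONTROL to 6725 RPKM in COLD. Both belong to the 10 leading genes, and neither was tested. OsC6 followed in loss, with 25952 and 20286 RPKM in CONTROL and COLD. Other losses larger than that of the caleosin related gene included a triacylglycerol lipase precursor gene (LOC_Os06g42860), 1838 and 801 RPKM. An acyl-desaturase gene (LOC_Os04g31070) had 1747 and 847 RPKM.

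Called genes were spread over all 12 chromosomes. The share that rose ran from 7.12% on chromosome 12 to 11.6% on chromosome 3, and the share that fell from 6.90% on chromosome 3 to 9.73% on chromosome 9. In the order of locus numbers, 67 runs of 2 or more adjacent genes rose at least 2-fold and 34 fell at least 2-fold, with 212 genes in all. These came from the 1229 genes that rose and the 931 that fell at least 2-fold. Whether adjacent genes changed together more often than other genes was not tested. The longest run held 4 genes that rose, a transmembrane amino acid transporter gene (LOC_Os02g44980), OsFBDUF13, LOC_Os02g45000 (these named for their place) and the ethylene-related factor OsbHLH076 (LOC_Os02g45010), which had 7.53 to 10.98 RPKM in CONTROL and 19.8 to 24.996 RPKM in COLD.

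The study used qRT-PCR on a few genes, and 3 primer pairs are shown as the sequences that tie the largest fall among these genes, a weaker difference and a reference gene to a measured transcript. Each primer is written from its 5′ end, in lower case.
U2AF forward: aagtacggcgagatcgagag
U2AF reverse: tgatcctcctccctgaattg
LOC_Os02g30470 forward: gtccttcagacagcgagagc
LOC_Os02g30470 reverse: atcgcttctcctcaatctgc
NABP forward: ggaatgtggacggtgacact
NABP reverse: tcaaaatagagtccagtagatttgtca

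The gene of splicing factor U2AF (LOC_Os09g31482), on chromosome 9, was at 131, 167 and 140.1 RPKM in CONTROL A, B and C and 17.8, 20.3 and 22.9 RPKM in COLD A, B and C (log2 difference -2.78 ± 0.14, adjusted p = 0.00067), which is 5818, 5503 and 4035 recovered reads in CONTROL and 707, 745 and 707 in COLD. LOC_Os02g30470, on chromosome 2 and described as an expressed protein, had 95.6, 112 and 122 RPKM in CONTROL against 55.1, 69.9 and 90.5 in COLD, with no overlap but an adjusted p of 0.07. The reference gene NABP (LOC_Os06g11170), on chromosome 6, had 36.2, 40.3 and 34.9 RPKM in CONTROL against 28.1, 29.9 and 28.5 in COLD (log2 difference -0.35 ± 0.09, adjusted p = 0.048), so its small fall just passed the threshold and was lost in each omission of a library. The other reference gene, OsUBQ (LOC_Os02g06640), had means of 1642 and 992 RPKM in CONTROL and COLD and was not tested. Of the remaining primer genes, MARbp (LOC_Os12g20410), OsMYB5 (LOC_Os05g41166) and OsFAD3 (LOC_Os11g01340), a desaturase gene, did not pass the test, with log2 ratios of -0.22, -0.35 and 0.15.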

How the data were processed

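Anther RNA of 3 ERY CONTROL and 3 ERY COLD samples was sequenced as 50-base reads. The deposited table gives RPKM values that the authors normalized further and averaged within each group; fold changes and FDR values of the authors' own comparisons stand beside them and were not used. The table has 0 columns for single samples. Since a mean is a sum of whole reads times a library constant over a whole length, reads and lengths were solved by integer lattice reduction (NumPy 2.4.6, pandas 2.3.3). On simulated means 1439 of 1500 genes were solved, all with the values put in. No test had been planned for a table of means, so limma 3.58.1 (R 4.3.3; log2(RPKM + 1), trend, Benjamini-Hochberg adjusted p under 0.05, "rose" and "fell") was added after the table was seen. On simulated reads it called 100 of 100 genes changed 4-fold, 58 of 100 changed 2-fold and 6 unchanged genes. These reads were drawn independently for each gene with the same spread for all genes, and the changed genes had at least 5 RPKM. In the real libraries many genes varied together within a group and the spread differed by level. The 6 calls therefore do not give the error rate of the real calls. Replicates are biological per the labels. Intervals of counting error were not computed. Genes of the ethylene, anther and starch lists were named where they changed 2-fold, passed the test or stood for a step; of description groups and factor families, up to 4 genes with the largest ratio and at least 5 RPKM; of all described genes with at least 10 RPKM, the 12 highest and 12 lowest; and the most abundant, the largest gains and losses, 2 undescribed genes in each direction and the primer genes, with exceptions stated. Not every gene so chosen is printed. The comparison and lists were chosen with earlier results of these data known. Per the study's methods, reads were mapped to MSU rice gene models in CLC Genomics Workbench; no coordinates are given.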

Additional observations from a re-analysis of the deposited data

How the results depend on the processing

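Counts of 2-fold genes moved with the limits. Against 1961 higher and 1594 lower genes, a 1.5-fold limit gave 3927 and 3476, a 3-fold limit 864 and 546, a minimum of 5 RPKM 1162 and 826, a minimum of 10 RPKM 865 and 572, no minimum 4498 and 4187, and ratios of RPKM + 1 gave 1233 and 878. Anther genes beyond the limit, 4 in all, numbered 9, 1 and 2 at 1.5-fold, at 3-fold and with RPKM + 1, and starch and sugar genes, 7 in all, numbered 11, 2 and 4. Genes described for S.AND alone, 181 in all, numbered 362 at 1.5-fold, 74 at 3-fold and 116 at a minimum of 10 RPKM. At 3-fold 8 of 13 ethylene literature genes and 74 of 122 transcription factors remained beyond the limit. The 13 added ethylene factors had 8 beyond it at a minimum of 10 RPKM, with a median log2 ratio of 1.62, and a median of 1.58 with RPKM + 1. Division by the column sums changed neither count.

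The test and its alternatives were chosen after the table was seen. Against 2371 genes that rose and 1992 that fell, voom gave 2433 and 2246, RPKM + 0.1 gave 2354 and 1979, centring each library on its median 2222 and 2543, and array weights 3406 and 3513. Omission of 1 library gave 1264 to 2007 that rose and 860 to 1893 that fell. Centring lowered the share of called genes that rose from 54.3% to 46.6%. Of 301 tested genes chosen by the naming rule or added, 236 passed the test, and none of these 236 changed direction under these alternatives. Among the 236, 13 to 38 lost the call when 1 library was omitted, 3 with array weights, 2 with centring and 0 with voom or RPKM + 0.1. No paired analysis was possible because the libraries recovered from the means carry no replicate number. The most abundant genes, 93 in all, have no test, and genes under 5 RPKM vary most between libraries.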
